A study of Microtus ochrogaster with 40 samples.

Results

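D2 medium spiny neurons rich in Penk were examined in the nucleus accumbens of the prairie vole (Microtus ochrogaster), a rodent that forms lasting pair bonds. A nucleus was taken as a member when it held at least 2 unique molecular identifiers (UMIs, 1 for each captured RNA molecule) summed over DRD2, Adora2a and Gpr6, at least 2 UMIs of Penk, and 0 UMIs of each of Cpne7, DRD1A, Otof and Slc17a7. Of 185995 nuclei kept from 40 animals, 20438 (11.0%) met this rule. The values of these 8 genes therefore describe how the nuclei were chosen and are given without a test.

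The 40 voles gave 1 single-nucleus RNA library each. The labels give 4 groups, all housed in this way for 16 days. In females, 11 were housed with a male partner (female mate) and 8 with another female (female peer). In males, 11 were housed with a female (male mate) and 10 with another male (male peer). All animals thus had a partner, no animal housed alone was included, and the labels give no genotype, drug or age. They name no partners, so animals of a pair may not be independent. Of the 20 units of 2 consecutive label numbers, 11 held a female and a male with a mate and 9 held 2 peer animals of 1 sex, but the labels do not say that these lived together.

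Medium spiny neurons are the GABA-releasing projection neurons of the striatum, and they are divided by their dopamine receptors. D2 neurons carry the D2 receptor, which lowers cyclic AMP, together with an adenosine receptor (Adora2a) and the orphan receptor of Gpr6, which raise it. They make proenkephalin, the product of Penk, from which enkephalin peptides are cut, whereas D1 neurons make the precursors of dynorphin (Pdyn) and substance P (Tac1). In voles, D2 receptors and opioid receptors of the accumbens have been studied for their part in partner preference.

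Barcodes with fewer than 500 UMIs (6375 of 194518) or with more than 5% of their UMIs in 13 mitochondrial genes (2148) were left out. All 6375 barcodes below 500 UMIs came from the library labelled male mate 2. A library kept between 1793 and 8204 nuclei and between 3002288 and 14907749 UMIs. The share of kept nuclei with at least 2 UMIs of Slc17a7, a glutamate neuron gene, lay between 0.400% (male peer 5) and 25.6% (male peer 8), so the libraries differed in makeup. Of 164425 distinct barcode sequences, 19903 (12.1%) occurred in more than 1 library, and no pair of libraries shared more than 85.

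An animal gave between 67 (female peer 1) and 1166 (female mate 8) Penk-rich D2 nuclei, with a median of 492.5. These nuclei were deeper than the kept nuclei as a whole, but not deeper than the other spiny nuclei described below. The medians there were 2226 UMIs in D1 nuclei and 2190 UMIs in Cpne7 D2 nuclei. Their median was 2060 UMIs and 1521 genes, against 1555 UMIs and 1212 genes over all kept nuclei. The median UMI number of the members of 1 animal lay between 662 in male mate 2 and 3199.5 in female mate 6.

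The rule's D2 genes were found unevenly among the members. Gpr6 was detected in 88.8% of them, Adora2a in 87.2%, DRD2, the receptor that gives the class its name, in 53.2%, and all of these genes together in 40.0%. Over the 40 animals the members held 236 to 755 CPM of DRD2 (CPM is the usual depth scaling of the gene's UMIs by all UMIs of the same nuclei), with a median of 361. Adora2a lay between 808 and 1463 CPM with a median of 1033, and Gpr6 between 683 and 1544 CPM with a median of 1149. Male mate 2, the shallowest library, held the highest DRD2 (755 CPM) and Adora2a levels. Its Gpr6 (1434 CPM) was below the highest animal, and its Penk (6469 CPM) was below the median over animals of 7143 CPM. The part of depth in these levels was not tested.

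Penk was abundant well above the minimum. A member held a median of 12 Penk UMIs, with quartiles at 7 and 21 and a maximum of 244. Of the members, 62.4% held at least 10 Penk UMIs, and 970 (4.75%) held exactly 2. Summed per animal, Penk lay between 4434 CPM (female mate 2) and 9844 CPM (female mate 8), with a median of 7143 CPM.

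The rule took 64.1% of the 31886 nuclei with at least 2 UMIs over DRD2, Adora2a and Gpr6. Of the 24555 such nuclei that also had at least 2 Penk UMIs, 4117 were left out for a UMI of an excluded gene: 1871 for DRD1A, 1425 for Slc17a7, 951 for Cpne7 and 495 for Otof, where a nucleus could count for several. A further 3218 nuclei met the D2 part of the rule and all its exclusions but had 0 Penk UMIs, and 1195 had 1. Nuclei chosen by genes of other cells met the rule as well. Of 13626 nuclei chosen by oligodendrocyte genes, whose median was 718 UMIs, 12.5% held a Penk UMI and 219 (1.61%) met the whole rule; among 18557 D1 nuclei (median 2226 UMIs) 25.1% held a Penk UMI. Free RNA, doublets and neurons within these sets were not told apart.

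Members were described beside 2 other kinds of spiny nuclei. D1 nuclei had at least 2 DRD1A UMIs and 0 of each of DRD2, Adora2a, Gpr6, Otof and Slc17a7. Cpne7 D2 nuclei, 1741 in all, had at least 2 UMIs over DRD2, Adora2a and Gpr6 and at least 1 of Cpne7, with 0 of each of DRD1A, Otof and Slc17a7. Within each animal the log2 ratio of CPM + 10 was taken, which understates the difference of genes of low level, and a gene was counted when the median ratio over animals was at least 1 or at most -1 with that sign in at least 9 of 10 animals. Since all these nuclei were chosen on expression, the ratios are a description with no test. All 40 animals entered against D1 nuclei and 33 against Cpne7 D2 nuclei, the others having fewer than 20 Cpne7 D2 nuclei, and with so few nuclei the Cpne7 levels of a single animal are coarse.

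Of 9545 genes measured against D1 nuclei, 19 (0.199%) were past this rule as higher in members and 52 (0.545%) as lower. Against Cpne7 D2 nuclei, 57 of 9642 (0.591%) were higher and 63 (0.653%) lower. The label's 2 markers that the rule did not use both stood on the D2 side. Gpr52, an orphan receptor that raises cyclic AMP, lay between 97.7 and 216 CPM in members over the animals, with a mean of 146 ± 28.7 (SD, n = 40), and had a mean of 13.0 ± 5.43 CPM in D1 nuclei. Its median log2 ratio was 2.77, and it was higher in 40 of 40 animals. P2ry1, a receptor for ADP, lay between 50.5 and 119 CPM in members and had a mean of 3.38 ± 2.03 CPM in D1 nuclei, a median log2 ratio of 2.70. The members' lowest animal was above the highest D1 animal for both genes.

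Against Cpne7 D2 nuclei the same markers differed less, with median log2 ratios of 0.59 for Gpr52 (148 ± 28.9 against 97.7 ± 33.6 CPM, n = 33) and 0.48 for P2ry1 (78.4 ± 15.2 against 47.8 ± 23.5 CPM), and their ranges overlapped. To compare detection at 1 depth, each nucleus with at least 1000 UMIs was thinned to 1000 UMIs. Gpr52 was then found in 13.7% of 19444 members, 9.18% of 1700 Cpne7 D2 nuclei, 1.32% of 17946 D1 nuclei and 1.59% of 3703 oligodendrocyte-gated nuclei. The last are those of the 13626 that held 1000 UMIs or more. They were taken as nuclei that should lack these genes, and they can also hold doublets or neurons. P2ry1 was found in 7.56% of members, 4.59% of Cpne7 D2 nuclei, 0.412% of D1 nuclei and 0.891% of oligodendrocyte-gated nuclei.

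Of 7 further D2 genes, 3 of the 6 measured were higher in members than in D1 nuclei and 0 lower, against 0.199% and 0.545% of all genes, and the 6 had a median log2 ratio of 0.89 against -0.01 over all genes. Grik3, a kainate receptor subunit, had 61.3 ± 10.8 CPM in members and 4.68 ± 2.64 CPM in D1 nuclei. Sp9, a transcription factor needed for striatopallidal neurons, had 88.8 ± 14.1 and 19.3 ± 6.62 CPM, and Upb1, an enzyme of pyrimidine breakdown, 20.6 ± 5.24 and 0.553 ± 0.686 CPM. All 3 were higher in 40 of 40 animals. Upb1 lies 2 places from Adora2a, a gene of the rule, as described below. Six3, Adk and Plxdc1 had median log2 ratios of 0.13, 0.25 and 0.07, and Ttc12 was below the minimum level. Against Cpne7 D2 nuclei 0 of the 6 were past the rule in either direction.

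D1 genes were low in members. Of 9 listed D1 genes other than the receptor, 7 were measured and 6 of these were lower in members, beside 0.545% of all genes. Tac1 lay between 24.4 and 189 CPM in members, with a median of 72.8, and had a mean of 1902 ± 413 CPM in D1 nuclei, a median log2 ratio of -4.60. Pdyn lay between 0 and 21.8 CPM in members, with a median of 10.9, and had a mean of 538 ± 132 CPM in D1 nuclei, a ratio of -4.65. Members and D1 nuclei did not overlap in either gene. After thinning, Tac1 was detected in 5.12% of members and 13.4% of oligodendrocyte-gated nuclei, and Pdyn in 0.905% and 4.59%, so both shares were lower in members than in the oligodendrocyte-gated nuclei.

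The muscarinic M4 receptor gene Chrm4 (4.53 ± 2.70 against 162 ± 25.7 CPM) and Slc35d3, a transporter-like protein known from the trafficking of D1 receptors (4.36 ± 2.27 against 179 ± 31.2 CPM), were also lower in 40 of 40 animals. Sfxn1 had a median log2 ratio of -1.14 and Ebf1 of -1.03. Zfp521, the measured D1 gene not past the rule, had -0.81. Tac1 separated the members from Cpne7 D2 nuclei too, which held 607 ± 357 CPM of it, a median log2 ratio of -2.82 with 33 of 33 animals lower. Slc35d3 was the other D1 gene past the rule there, at -1.54.

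**Figure D1:**
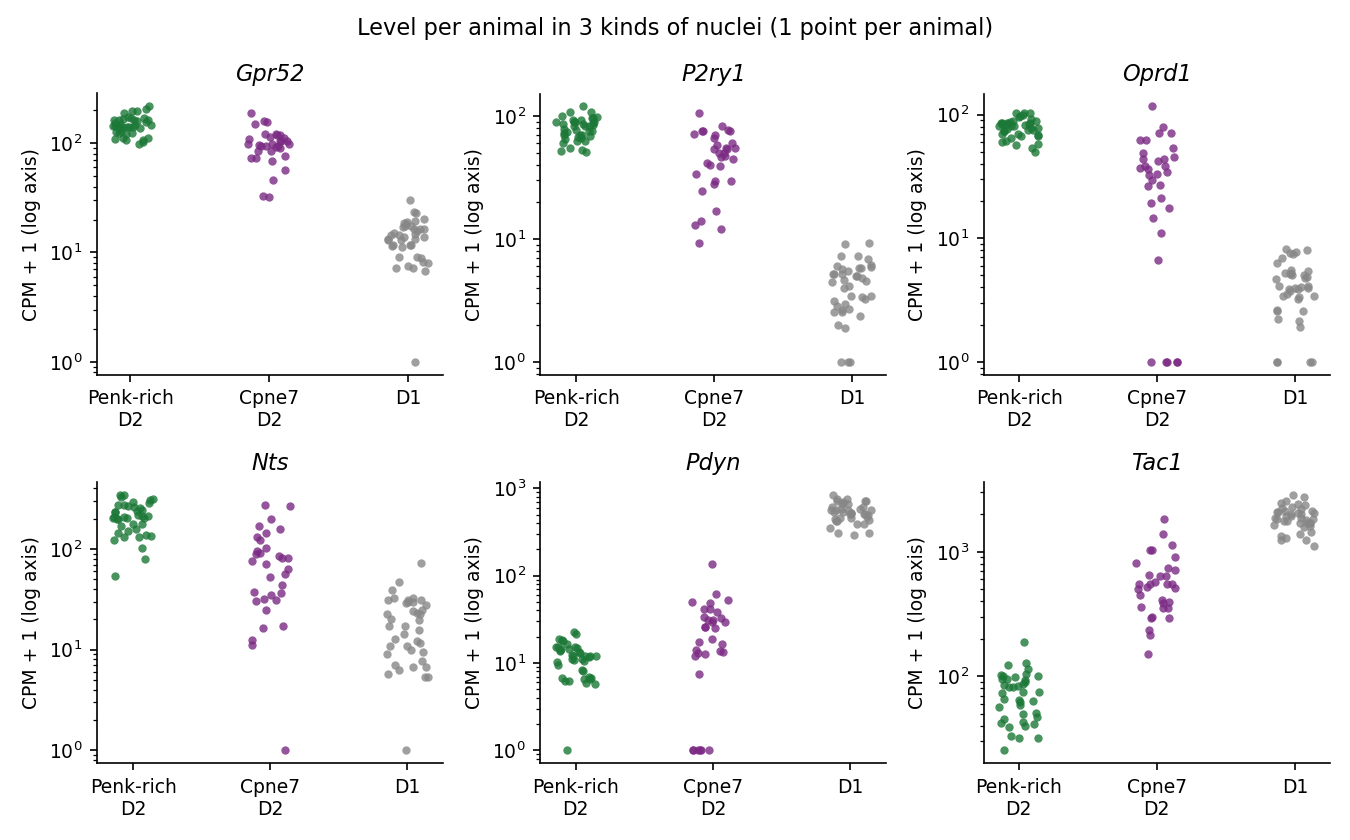
Level of 6 genes per animal in Penk-rich D2 nuclei (green), Cpne7 D2 nuclei (purple) and D1 nuclei (grey), as CPM + 1 on a log axis, 1 point for each animal with at least 20 such nuclei. Gpr52, P2ry1 and Oprd1 lie higher in the members than in every D1 point, Nts is higher with some overlap between animals, Pdyn and Tac1 lie the other way, and Tac1 is higher in the Cpne7 D2 nuclei (607 CPM on average) than in the members (73.2 CPM).

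The opioid system, to which Penk belongs, was followed through a list of 18 genes. Against D1 nuclei, 1 of 16 measured genes was higher in members and 1 lower, beside 0.199% and 0.545% of all genes. The median log2 ratio of the list was -0.15. The higher one was Oprd1, the delta opioid receptor, which binds enkephalins with high affinity. It lay between 49.1 and 103 CPM in members, with a mean of 77.8 ± 13.8 CPM, and had a mean of 3.24 ± 1.97 CPM in D1 nuclei, a ratio of 2.75 in 40 of 40 animals. Members and D1 nuclei did not overlap. The lower one was Pdyn, already counted among the D1 genes. Oprd1 was detected in 7.73% of thinned members, 2.82% of Cpne7 D2 nuclei, 0.307% of D1 nuclei and 1.05% of oligodendrocyte-gated nuclei.

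The other opioid receptors were shared with D1 nuclei. Oprm1, the mu receptor, had 186 ± 50.9 CPM in members and 164 ± 44.9 CPM in D1 nuclei, a ratio of 0.21 with 29 of 40 animals higher. Oprk1, the kappa receptor for dynorphin, had 180 ± 38.9 and 221 ± 41.0 CPM, a ratio of -0.31 with 37 of 40 animals lower. Against Cpne7 D2 nuclei, however, Oprk1 was past the rule, with 181 ± 41.7 against 67.8 ± 34.5 CPM, a ratio of 1.37 in 33 of 33 animals, as was Oprd1 with 79.8 ± 13.3 against 34.4 ± 26.3 CPM. Oprl1, the nociceptin receptor, was at 19.0 ± 7.40 CPM in members and 36.4 ± 11.5 CPM in D1 nuclei, a ratio of -0.68.

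Genes for processing peptide precursors were not past the rule as higher in members. Pcsk1, a convertase that cuts prohormones, had 41.1 ± 16.4 CPM in members against 81.7 ± 31.0 CPM in D1 nuclei (ratio -0.86, 39 of 40 animals lower), and was past the rule as lower against Cpne7 D2 nuclei (ratio -1.28, 31 of 33 animals). Pcsk2, a second convertase, had 442 ± 96.2 against 437 ± 92.2 CPM in D1 nuclei, and Cpe, a carboxypeptidase that trims the cut peptides, 701 ± 110 against 762 ± 109 CPM. Scg2, a granin of dense-core vesicles, had a ratio of -0.41 with 40 of 40 animals lower.

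Nts, the precursor of the peptide neurotensin, was among the genes that set the members apart most. It lay between 52.3 and 344 CPM in members over the animals, with a median of 206, and had a mean of 18.8 ± 13.9 CPM in D1 nuclei, a ratio of 3.00 in 40 of 40 animals. Cpne7 D2 nuclei had 81.8 ± 68.7 CPM, a ratio of 1.46 with 32 of 33 animals higher in members. After thinning, Nts was found in 11.9% of members, 5.77% of Cpne7 D2 nuclei, 1.32% of D1 nuclei and 1.73% of oligodendrocyte-gated nuclei. Cartpt, the precursor of CART peptides, had 233 ± 78.1 CPM in members against 117 ± 38.7 CPM in D1 nuclei (ratio 0.93, 38 of 40 animals) and was past the rule against Cpne7 D2 nuclei (ratio 1.30, 30 of 33 animals).

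Among 49 further neurotransmitter and peptide receptors, 1 of 31 measured was higher than in D1 nuclei and 4 were lower, beside 0.199% and 0.545% of all genes. The higher one was Htr4, a serotonin receptor that raises cyclic AMP, with 183 ± 41.6 against 62.2 ± 23.7 CPM (ratio 1.43, 40 of 40 animals). Of the lower ones, Chrm4 was already counted among the D1 genes. The others were the cholecystokinin receptor Cckbr (39.4 ± 15.9 against 106 ± 20.2 CPM), the cannabinoid receptor Cnr1 (101 ± 31.4 against 257 ± 90.0 CPM) and the orphan receptor Gpr83 (5.16 ± 2.84 against 20.4 ± 8.26 CPM). Htr2a, the serotonin 2A receptor, divided the D2 nuclei. It had 8.84 ± 6.19 CPM in members and 181 ± 88.8 CPM in Cpne7 D2 nuclei, a ratio of -3.34 with 33 of 33 animals lower, and its share of 0.838% of thinned members lay below the 2.19% of oligodendrocyte-gated nuclei.

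The cyclic AMP cascade and the common spiny genes were shared. Of 19 measured genes common to medium spiny neurons and of 23 genes of the cyclic AMP cascade, 0 were past the rule against D1 nuclei, with medians of 0.07 for both lists, which have genes in common. Adcy5, the main striatal adenylyl cyclase, had a ratio of -0.13, Rgs9, which speeds up the switching off of G proteins, 0.20, and Ppp1r1b, which encodes DARPP-32, -0.03. Against Cpne7 D2 nuclei Adcy5 and Rgs9 were both higher in 33 of 33 animals, with ratios of 0.49 for each. There 1 gene of both lists, the ion channel relative Ano3, was past the rule (471 ± 103 against 164 ± 81.5 CPM), beside 0.591% of all genes as higher.

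Of 27 measured glutamate and GABA receptor genes, Grik3, already counted among the D2 genes, was higher than in D1 nuclei and 2 were lower. Over all genes these shares were 0.199% and 0.545%. Grin3a, a subunit that reduces calcium flow through NMDA receptors, had 10.2 ± 5.22 CPM in members, 60.3 ± 21.1 CPM in D1 nuclei and 133 ± 63.0 CPM in Cpne7 D2 nuclei. The 31 measured excitability genes gave 0 past the rule against D1 nuclei and 3 higher and 1 lower against Cpne7 D2 nuclei. Against the latter, 0.591% of all genes were higher and 0.653% lower. Of 22 measured transcription factors, Sp9, also counted among the D2 genes, was higher and 2 were lower than in D1 nuclei, among them Foxp2 (13.0 ± 6.49 against 134 ± 43.5 CPM). Of 18 immediate early genes, 0 were past the rule against either kind of nuclei.

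Lists of striosome (patch) and matrix genes, the 2 compartments of the striatum, gave median log2 ratios of -0.71 over 8 patch genes and 0.17 over 7 matrix genes against D1 nuclei, and of -0.35 and 0.49 against Cpne7 D2 nuclei, where the median over all genes was 0.02. Sema5b, a patch gene, had 14.0 ± 6.44 CPM in members, 42.9 ± 11.4 CPM in D1 nuclei and 88.2 ± 41.8 CPM in Cpne7 D2 nuclei. Dlk1, of the list of accumbens territory genes, had 11.8 ± 10.5 CPM in members, 52.6 ± 25.2 CPM in D1 nuclei and 141 ± 95.5 CPM in Cpne7 D2 nuclei. Both means were lowest in the members. Past the ratio rule against D1 nuclei, 0 of 8 measured patch genes were higher and 2 (Pdyn and Sema5b) lower. Of 14 measured territory genes 1 (Nts) was higher and 3 (Cnr1, Dlk1 and Tac2) lower. Over all genes 0.199% were higher and 0.545% lower, and Pdyn and Cnr1 were already counted in lists above. Tac2, the neurokinin B precursor, had 20.5 against 188 CPM, a ratio of -2.75. Against Cpne7 D2 nuclei, 1 patch gene was higher and 1 (Sema5b) lower, and of 15 measured territory genes 3 (Nts, Cartpt and Crym) were higher and 1 (Dlk1) lower. Over all genes 0.591% were higher and 0.653% lower there. The higher patch gene was Lypd1, at 85.2 ± 32.0 against 37.6 ± 23.2 CPM (ratio 1.12), and the crystallin Crym had 55.0 ± 15.4 against 22.3 ± 19.6 CPM (ratio 1.09).

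**Figure D2:**
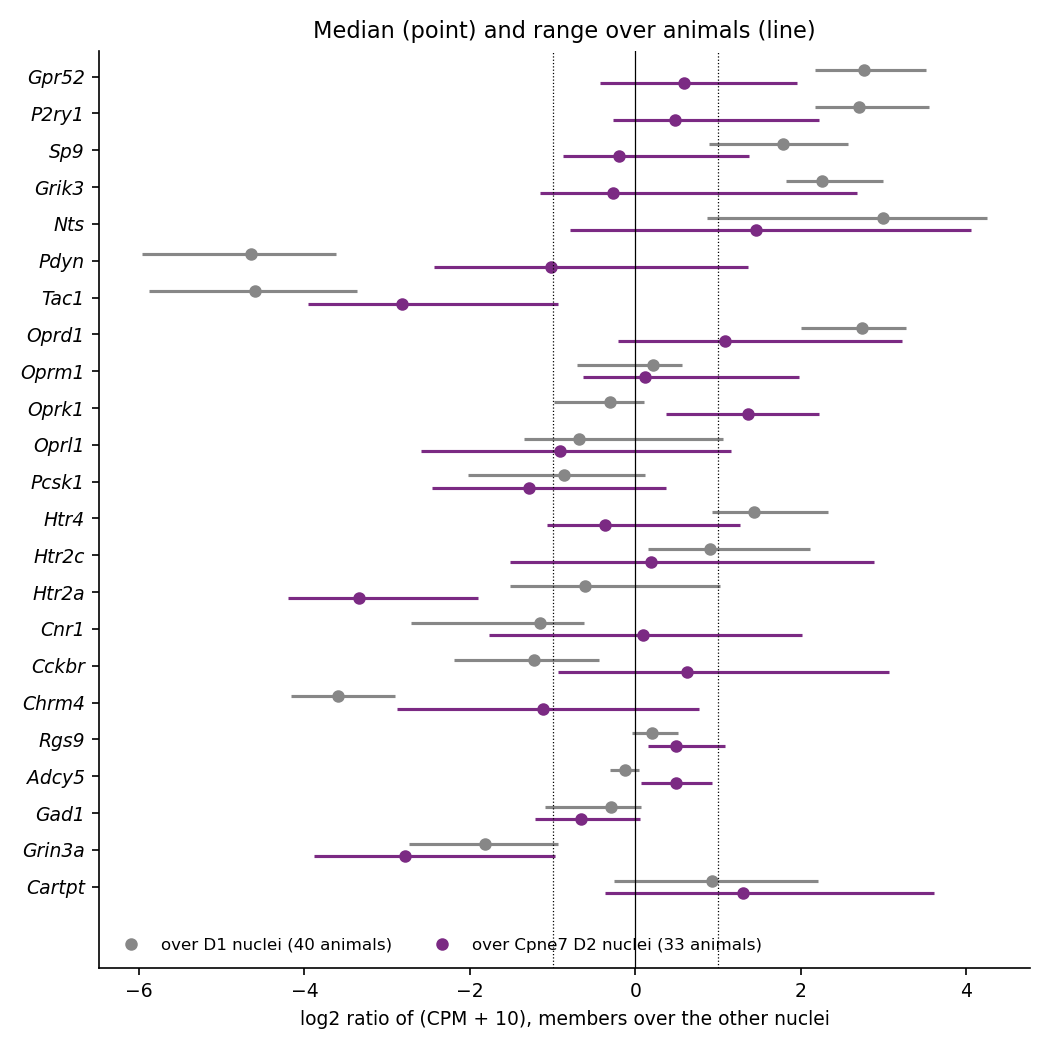
Within-animal log2 ratio of CPM + 10 in Penk-rich D2 nuclei over D1 nuclei (grey, 40 animals) and over Cpne7 D2 nuclei (purple, 33 animals) for genes of the lists. Points are medians and lines the range over animals, and dotted lines mark ratios of -1 and 1. Sp9, Grik3 and Htr4 have medians above 1 against D1 nuclei and below 0 against Cpne7 D2 nuclei, and Tac1 and Grin3a lie to the left against both.

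Outside the lists, the genes furthest above D1 nuclei were Fig4, a phosphoinositide phosphatase (377 against 24.1 CPM, ratio 3.48), and B3gat1, which makes the HNK-1 carbohydrate (408 against 63.5 CPM, ratio 2.57). Furthest below lay Erbb4, the neuregulin receptor (7.32 against 163 CPM, ratio -3.31), Asic4, of the acid-sensing ion channel family (13.2 against 195 CPM, ratio -3.19), and Sntg2, a syntrophin (31.2 against 249 CPM, ratio -2.69). Also past the rule was Reln, the extracellular protein reelin (106 against 591 CPM, ratio -2.43). Furthest above Cpne7 D2 nuclei were the receptor phosphatase Ptprv (307 against 44.7 CPM, ratio 2.64) and the collagen Col24a1 (232 against 46.4 CPM, ratio 2.39), and furthest below were the relaxin receptor Rxfp1 (2.84 against 133 CPM, ratio -3.51) and Scube1 (ratio -3.40).

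Some of the leading genes sit near a gene of the rule. In the RefSeq annotation of assembly MicOch1.0, Fig4 is next to Gpr6, Ak9 (132 against 40.4 CPM in D1 nuclei, ratio 1.35) lies 2 places from Gpr6, and Upb1 lies 2 places from Adora2a. All 3 were past the ratio rule as higher. They were 3 of the 8 measured genes within 2 places of DRD2, Adora2a, Gpr6 or Penk. Neighbours of the genes that the rule excluded were not looked up. The other 5 were not past it: Wasf1, also next to Gpr6 (911 against 685 CPM, ratio 0.41), Cdc40 (ratio 0.08), Specc1l (0.13) and Bcr (0.04) near Adora2a or Gpr6, and Zw10 near DRD2 (0.42). For Penk the nearest genes with a value were 3 places away, Chchd7 with a ratio of 0.21 and Ubxn2b with -0.03, so no gene at the distance of Fig4, Ak9 and Upb1 could be set beside them. Whether reads that run past a gene's end added to these values was not tested.

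Nuclei just outside the Penk threshold were set beside those just inside it. Summed over the 40 animals, Nts stood at 18.0 CPM in the 3218 D2 nuclei with 0 Penk UMIs, 55.8 CPM in the 1195 with 1 UMI, 55.4 CPM in the 970 members with exactly 2, and 223 CPM over all members, so it was even across the threshold. In the same order Tac1 stood at 997, 581, 232 and 75.4 CPM and Htr2a at 162, 102, 37.1 and 9.61 CPM, lower at each step. Oprd1 stood at 18.5, 48.3, 82.5 and 79.0 CPM and Gpr52 at 59.8, 108, 136 and 145 CPM. On the other threshold, the 2593 nuclei with a single UMI over DRD2, Adora2a and Gpr6 held 116 CPM of Gpr52 and 68.4 CPM of Erbb4, against 152 and 16.8 CPM in the 2796 members with exactly 2.

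The 3218 D2 nuclei without Penk were therefore set beside the members within animals. Of 9666 genes in 37 animals, 109 (1.13%) were higher in members and 84 (0.869%) lower. Nts had 212 ± 72.6 against 16.9 ± 18.2 CPM (ratio 3.35) and Cartpt 236 ± 76.4 against 38.4 ± 37.1 CPM (ratio 2.49), both higher in 37 of 37 animals. Oprd1 had 77.0 ± 12.7 against 17.9 ± 15.9 CPM, a ratio of 1.65. Markers of other spiny types moved with this contrast. Of the measured D1 genes 3 of 6 (Tac1, Chrm4 and Slc35d3) were lower in members, with a list median of -1.53, and so were all 3 measured eccentric spiny genes (Cacng5, Foxp2 and Htr7), with a median of -1.39. Their part in the other ratios was not tested. Tac1 had 73.5 ± 33.4 against 984 ± 436 CPM (ratio -3.57) and Htr2a 10.2 ± 7.20 against 161 ± 66.9 CPM (ratio -3.18), both lower in 37 of 37 animals. The convertase genes Pcsk1 (ratio -1.15) and Pcsk2 (ratio -1.02) were lower in members. So were the secreted peptide precursor Vgf (630 ± 109 against 1280 ± 319 CPM) and Crhr2, the receptor for urocortins (44.6 ± 17.5 against 120 ± 65.1 CPM).

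Penk also varied among the members. The 19444 members with at least 1000 UMIs were divided within each animal at the median share of UMIs that came from Penk, which gave 9712 nuclei of higher and 9732 of lower Penk share, with 10467 and 3816 CPM of Penk and median depths of 2237 and 1990 UMIs. This division was made after other values had been seen, and its 39 animals exclude the one with fewer than 20 nuclei on a side. Of 9488 genes, 1 (0.0105%) was past the rule as higher and 0 (0%) as lower. That gene was Nts, with 319 CPM in members of higher Penk share and 90.7 CPM in those of lower share, a ratio of 1.64 in 39 of 39 animals.

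Within the members, activity-regulated genes leaned the same way with smaller ratios. All 18 measured immediate early genes had a median ratio above 0, against 37.5% of all genes, and their median was 0.48 against -0.04 over all genes. Other lists also had high shares above 0, at 82.6% of 23 cyclic AMP cascade genes, 78.9% of 19 common spiny genes and 71.4% of 7 matrix genes. Their medians were smaller (0.098, 0.098 and 0.13), and the share was 16.7% of the 6 further D2 genes. Of the 18 immediate early genes, 4 (22.2%) were higher in at least 9 of 10 animals, against 95 of all 9488 genes (1.00%). They were the nuclear receptors Nr4a1 (81.5 against 44.4 CPM, ratio 0.81, 36 of 39 animals) and Nr4a3 (ratio 0.66, 37 of 39), the transcription factor Egr3 (ratio 0.52, 37 of 39) and Nptx2, which clusters AMPA receptors (ratio 0.60, 36 of 39). Fos, the most used marker of recent activity, had a ratio of 0.60 with 30 of 39 animals higher. Between members and other D2 nuclei the list's sign was not the same throughout. Its median was 0.01 against D2 nuclei with 1 Penk UMI and -0.41 against D2 nuclei with 0 Penk UMIs, where the median over all genes was 0.02, with 0 genes past the rule as higher and 1, Arc, as lower (198 ± 109 against 414 ± 244 CPM, ratio -1.02). Its median against Cpne7 D2 nuclei was -0.34. After thinning, Fos was detected in 2.24% of members and 4.71% of D2 nuclei with 0 Penk UMIs, and Nr4a1 in 4.50% and 9.28%.

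Of the 16 measured genes of the opioid list, which also holds genes for the making of peptides, 9 had a median ratio above 0 and the list's median was 0.04. Its 3 genes (18.8%, beside 1.00% of all genes) that were higher in at least 9 of 10 animals were Vgf, Chgb and Pam. Shares near it stood in other lists, at 15.8% of 19 genes common to spiny neurons, 15.4% of 13 territory genes, 14.3% of 7 patch genes and 13.0% of 23 genes of the cyclic AMP cascade. Vgf had 756 against 465 CPM (ratio 0.66, 38 of 39 animals), the granin Chgb 630 against 469 CPM (ratio 0.41, 39 of 39), and Pam, which amidates peptides, a ratio of 0.30 (37 of 39). Tac1 had 45.0 against 101 CPM, a ratio of -0.81 with 36 of 39 animals lower. Beside these values, the 3 measured astrocyte genes had a median ratio of -0.67 and the 4 measured oligodendrocyte genes of -0.20, and nuclei with 3 or more UMIs of markers of other cell types made up 6.44% of the higher and 7.99% of the lower side. The part of these and of depth in the ratios was not tested.

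**Figure D3:**
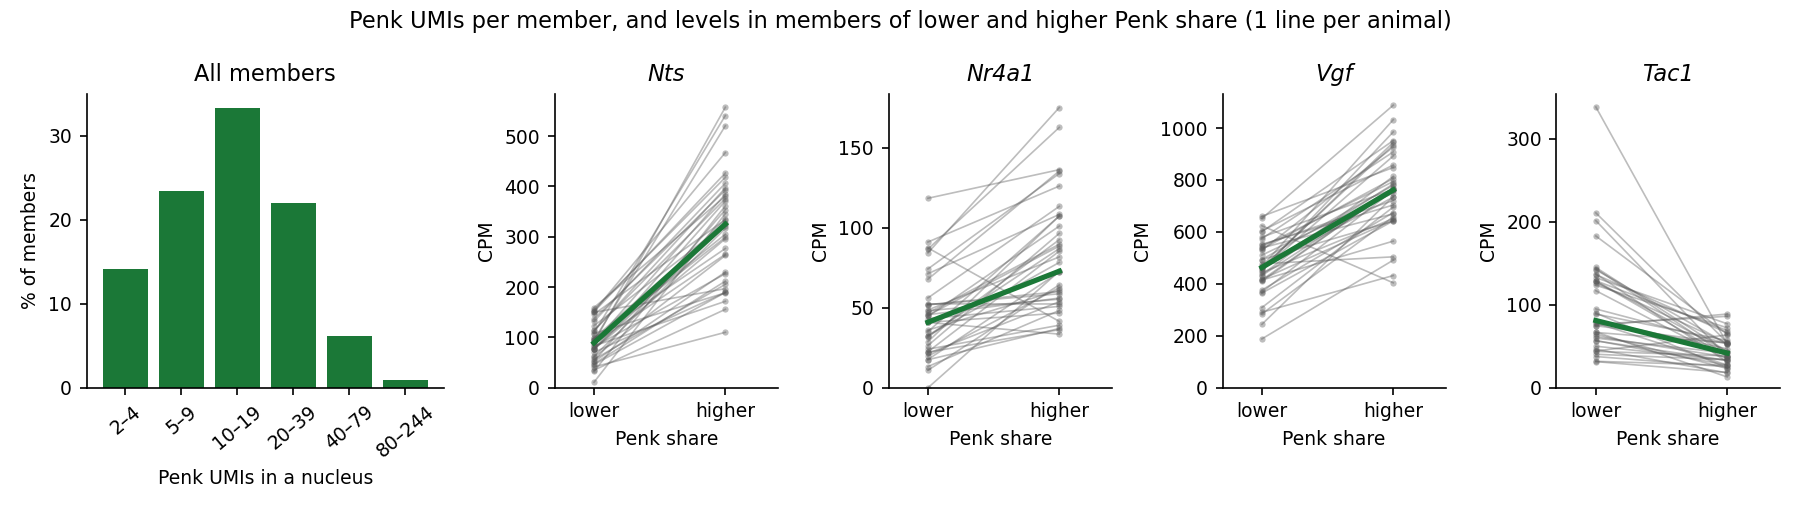
Left, share of members (%) by the number of Penk UMIs in the nucleus. Right, level (CPM) of Nts, Nr4a1, Vgf and Tac1 in members of lower and higher Penk share, with 1 grey line per animal (n = 39) and the median over animals in green. Nts is higher on the side of higher Penk share in every animal shown (319 against 90.7 CPM on average), and Tac1 is lower in 36 of 39 (45.0 against 101 CPM).

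Markers of other cells were low in the members but not at 0. Of the members, 1454 (7.11%) held 3 or more UMIs over the lists of glial, vascular, glutamate neuron and interneuron markers. Per animal, the summed level in members was 11.2 to 226 CPM over 5 astrocyte genes, 108 to 557 CPM over 5 oligodendrocyte genes, 2.08 to 63.8 CPM over the microglia genes, 3.02 to 32.6 CPM over 3 oligodendrocyte precursor genes, 0 to 52.5 CPM over the vascular genes, 0.558 to 19.2 CPM over the glutamate neuron genes and 9.62 to 171 CPM over the interneuron genes. Over 5 genes of eccentric spiny neurons members had 8.14 to 49.9 CPM, and over 5 of immature neurons 11.4 to 58.1 CPM. D1 nuclei had 47.7 to 210 CPM and 77.7 to 544 CPM over the astrocyte and oligodendrocyte genes. They held more of the interneuron genes (a mean of 255 against 58.8 CPM in members), of the eccentric spiny genes (182 against 24.6 CPM) and of the immature neuron genes (51.9 against 29.2 CPM). Of these marker genes, 0 were at 0 in every animal's members.

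The share of Penk-rich D2 nuclei was then compared between the groups, for which the rule used no label. Female mate animals had 7.87% to 19.0% of kept nuclei as members, with a median of 12.0% and a mean of 12.1% ± 3.27 (SD, n = 11). Female peer animals had 3.25% to 15.2%, median 9.16%, mean 8.95% ± 3.39 (n = 8). Male mate animals had 3.80% to 13.7%, median 10.9%, mean 10.3% ± 2.86 (n = 11), and male peer animals 5.03% to 15.2%, median 11.5%, mean 10.8% ± 3.53 (n = 10). All 4 groups overlapped over most of their range.

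Averaged over the sexes, mate animals had 1.35 percentage points more than peer animals (two-sided permutation test with 100000 resamples, p = 0.216, Benjamini-Hochberg adjusted over 3 tests 0.323). Females and males differed by -0.0149 points (permutation p = 0.989, adjusted 0.989). The sign turned without female peer 1 (0.392) and with at least 4 Penk UMIs (0.0219), and stayed without male mate 2 (-0.341). The pairing difference was 3.59 points larger in females (permutation p = 0.0977, adjusted 0.293). None of the 3 differences passed the test. In such shares, more members cannot be told apart from fewer nuclei of other types, and the libraries differed in makeup, as the Slc17a7 shares show.

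Members were also counted against all nuclei that passed a UMI minimum of the receptor genes alone, a denominator that carried no exclusions and can hold nuclei with Slc17a7 or Otof UMIs. As a share of nuclei with at least 2 UMIs of DRD1A or over DRD2, Adora2a and Gpr6, members made up 36.1% ± 4.39 in female mate and 31.0% ± 5.20 in female peer animals, and 35.1% ± 2.08 in male mate and 34.7% ± 3.98 in male peer animals. The mate minus peer difference was 2.81 points (permutation p = 0.0389, adjusted 0.117), which did not pass after adjustment. The last denominator was nuclei with at least 2 UMIs over DRD2, Adora2a and Gpr6 alone. Of these, members made up 64.7% ± 4.79 in female mate and 61.6% ± 4.93 in female peer animals. In males the share was lower with a mate, at 62.4% ± 5.94 against 64.0% ± 7.19 with a peer. Averaged over the sexes, the mate minus peer difference was 0.758 points (permutation p = 0.682, adjusted 0.981).

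The number of members for each D1 nucleus was computed after the per-animal values had been seen. It was 0.943 to 1.61 in female mate animals (median 1.13), 0.465 to 1.23 in female peer animals (median 0.946), 0.855 to 1.47 in male mate animals (median 1.14) and 0.919 to 1.21 in male peer animals (median 1.01). The ratio was 0.183 higher in mate than in peer animals (permutation p = 0.00216, adjusted over 3 tests 0.00648), with overlapping groups. This adjustment did not cover the tests of the other denominators above. In such a ratio, more members cannot be told apart from fewer D1 nuclei. Without female peer 1, which had the fewest members, the difference was 0.150 (adjusted 0.0182), and without male mate 2 it was 0.167 (adjusted 0.0105). Thinning to 1000 UMIs took only the 123418 nuclei with at least that depth, and members and D1 nuclei were chosen again from them. The difference was then 0.205 and no longer passed (permutation p = 0.0444, adjusted 0.133). The ratio itself averaged 1.51 over the 40 animals after thinning, against 1.08 before, and male mate 2 kept 23 members. The sex difference (-0.061, permutation p = 0.293) and the difference between the sexes in the pairing difference (0.100, permutation p = 0.453) did not pass. Without female peer 1 these were -0.029 and 0.035, and after thinning the second was 0.292, none past the test. With each unit of 2 consecutive label numbers averaged and counted once, which was also added after the values were seen, the ratio was 1.16 ± 0.118 (SD, n = 11) in mate and 0.979 ± 0.112 (n = 9) in peer units. Their difference was 0.176 (two-sided exact permutation test, p = 0.002, adjusted over 2 tests 0.004), and that in the share of kept nuclei was 1.25 points (exact permutation p = 0.282, adjusted 0.282).

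**Figure D4:**
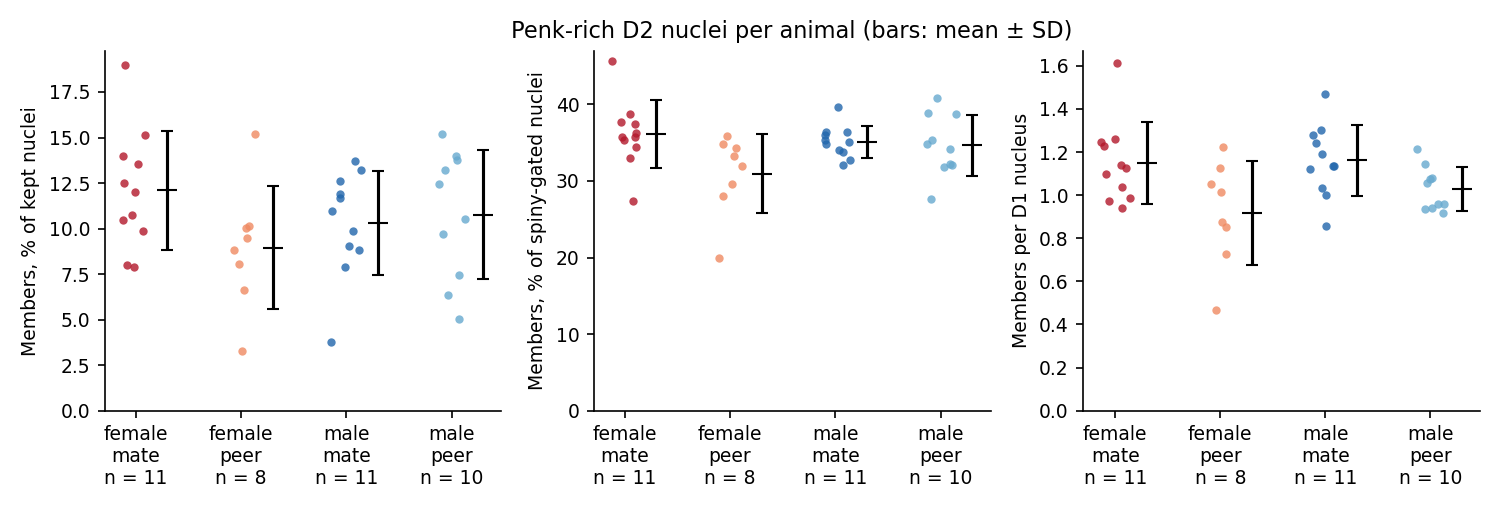
Penk-rich D2 nuclei per animal in the 4 groups, as % of kept nuclei (left), as % of nuclei with at least 2 UMIs of DRD1A or over DRD2, Adora2a and Gpr6 (middle, spiny-gated) and per D1 nucleus (right), with the mean and SD of each group beside its points. The groups overlap in all panels, female peer 1 lies lowest in each, and the members per D1 nucleus average 1.15 and 1.16 in the mate groups against 0.917 and 1.03 in the peer groups.

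For expression, UMI counts were summed over the members of each animal and tested with edgeR's quasi-likelihood test with 1 mean per group, adjusted by the Benjamini-Hochberg method over 10137 genes. The test took the animals as independent and had no term for animals of a pair, and units of consecutive label numbers were not used here. Genes with an adjusted p under 0.05 were called. Between mate and peer animals 0 genes (0%) were called by edgeR, with 425 at an unadjusted p under 0.05 (219 higher in mate animals, 206 lower) and 0 called by DESeq2. On simulated counts with this design, 100 genes were changed 1.5-fold and 100 others 2-fold together between mate and peer animals. Of these, 84% and 95% were called. The adjustment is less strict when many genes change together, so these shares do not apply to a gene that changes alone. How often such a gene would be called was not tested.

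The genes with the lowest p for mate against peer were Rnf114, a ubiquitin ligase, and Nova2, a neuronal splicing factor, beside ENSMOCG00000019954, a gene without a symbol. Rnf114 lay between 44.1 and 68.4 CPM (median 56.7) in female mate animals and between 27.0 and 52.2 CPM (median 40.4) in female peer animals. In males it lay between 43.0 and 64.0 CPM (median 58.1) with a mate and between 30.6 and 58.6 CPM (median 51.7) with a peer. Its groups overlapped. The log2 difference was 0.33 (SE 0.077, adjusted p = 0.989, edgeR). Nova2 averaged 44.6 CPM in mate and 35.4 CPM in peer animals, a difference of 0.31 (adjusted p = 0.989, edgeR), and ENSMOCG00000019954 34.5 and 46.7 CPM, a difference of -0.44.

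Within the females 0 genes were called (485 at an unadjusted p under 0.05, DESeq2 0), and within the males 0 (253, DESeq2 0; without female peer 1, 1 gene, Atp13a5, was called). In females, Lin7b, a scaffold protein of synapses, had the lowest p. It lay between 278 and 339 CPM in mate and 347 and 476 CPM in peer females, so these groups did not overlap. How many of the 10137 genes separated these groups in this way was not counted. The log2 difference of Lin7b was -0.36 (SE 0.083, adjusted p = 0.697, edgeR, and 0.153 to 0.988 over the alternatives). Mrs2, a mitochondrial magnesium channel, differed by -0.72 (adjusted p = 0.850, edgeR). ENSMOCG00000010003, without a symbol, differed by 2.82 (adjusted p = 0.850, edgeR). It lay between 0.441 and 252 CPM in mate and between 0 and 16.8 CPM in peer females, and the next mate female below 252 CPM stood at 63.2 CPM. In males, Polr1e, a subunit of RNA polymerase I, differed by -0.64 and Nfkbib, an inhibitor of NF-kappa-B, by -0.37, each with an adjusted p of 1.00 (edgeR). ENSMOCG00000019320, also without a symbol, differed by 2.23 (adjusted p = 1.00, edgeR), at 0.810 to 68.2 CPM in mate and 0 to 8.87 CPM in peer males. Male mate 9 (68.2 CPM) and male mate 10 (51.1 CPM) stood apart, and the other 9 mate males lay between 0.810 and 13.3 CPM.

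The pairing difference itself was compared between the sexes, and 0 genes (0%) were called by edgeR, with 311 at an unadjusted p under 0.05 and 0 by DESeq2. Lrp12, a receptor of the LDL receptor family, had the lowest p, with a pairing difference 0.67 larger in females (SE 0.156, adjusted p = 0.876, edgeR). Slc35f1, a member of a nucleotide sugar transporter family, followed at 1.08 (adjusted p = 1.00, edgeR), and ENSMOCG00000002541, without a symbol, at 1.05 (adjusted p = 1.00, edgeR).

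Between the sexes 2 of 10137 genes (0.0197%) were called, both higher in females, with 530 genes at an unadjusted p under 0.05 and 2 called by DESeq2. Kdm5c and Kdm6a both encode histone demethylases and are X-linked in mouse. Kdm5c lay between 171 and 220 CPM in the 19 females and between 94.4 and 173 CPM in the 21 males, with means of 198 ± 15.7 and 141 ± 16.9 CPM. The sexes met only at their edges. Its log2 difference was 0.48 (SE 0.050, adjusted p = 1.47e-08, edgeR), and the adjusted p was at most 9.12e-08 under every alternative run.

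Kdm6a lay between 256 and 492 CPM in female mate and 270 and 395 CPM in female peer animals, with medians of 309 and 329 CPM. In male mate and male peer animals it lay between 172 and 306 CPM and between 193 and 303 CPM, with medians of 229 and 222 CPM. The female groups were higher, with some overlap. Its log2 difference was 0.54 (SE 0.068, adjusted p = 1.97e-06, edgeR).

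**Figure D5:**
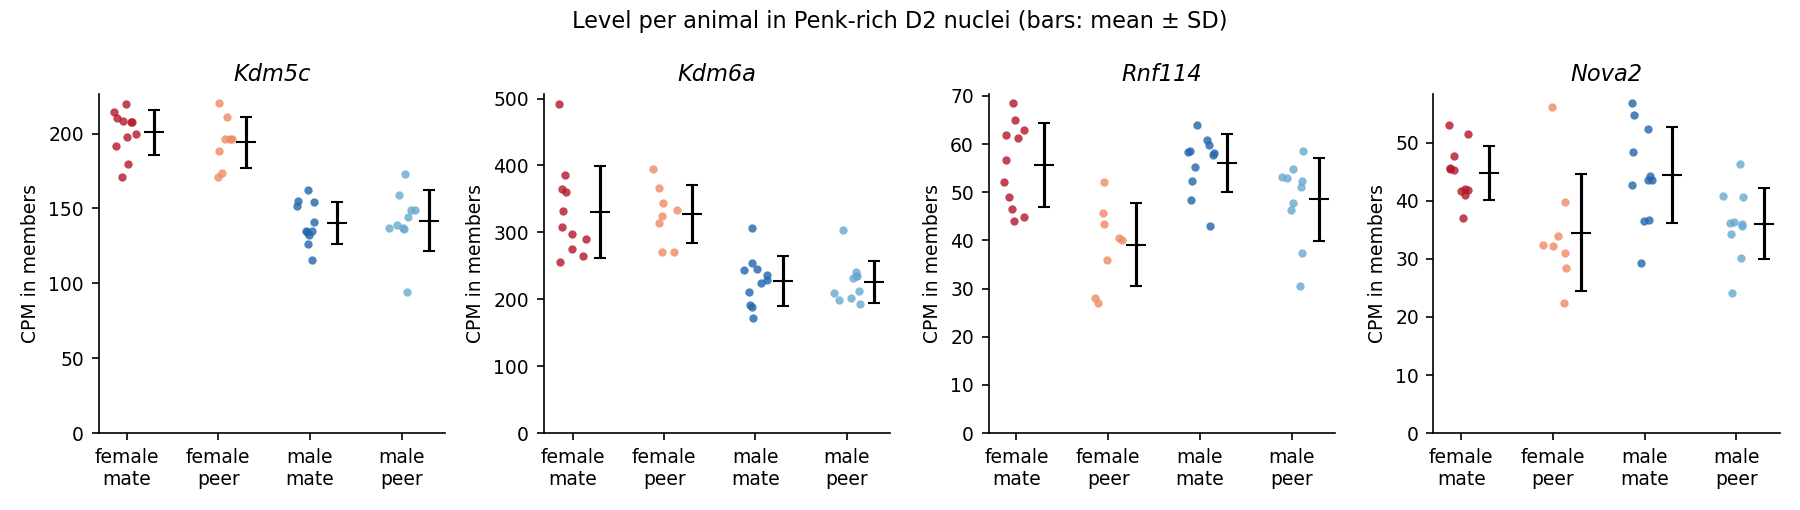
Level (CPM) of Kdm5c, Kdm6a, Rnf114 and Nova2 in the Penk-rich D2 nuclei of each animal by group, with the mean and SD of each group beside its points. The females lie above most males for Kdm5c and Kdm6a, and the mate and peer groups overlap for Rnf114 and Nova2.

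Among the genes that define or accompany the class, none that could be tested passed the adjusted test between the groups. Penk, used by the rule and so untested, had medians of 7498 CPM in female mate and 6663 CPM in female peer animals, and of 6956 CPM in male mate and 7532 CPM in male peer animals, with overlapping ranges. Nts differed between mate and peer animals by -0.07 (SE 0.15) and Oprd1 by 0.06 (SE 0.08), each with an adjusted p of 1.00 (edgeR). Gpr52 differed by 0.06 (SE 0.082) and P2ry1 by 0.17 (SE 0.093), also with adjusted p = 1.00 (edgeR). Within females P2ry1 lay between 64.9 and 119 CPM (median 81.7) in mate and between 50.5 and 85.3 CPM (median 68.9) in peer animals. The difference was 0.31 (SE 0.14, unadjusted p = 0.0274, adjusted p = 0.985, edgeR), and the groups overlapped. Over all 5 contrasts, 0 genes of any list were called, beside 0%, 0.0197% and 0% of all genes for mate against peer, the sexes and the difference between them.

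Some list genes fell under an unadjusted p of 0.05 without passing the adjustment. Between mate and peer animals these included Htr2a, Crhr2, Nr4a1 and Oprm1. The share under this cut was 4.19% of all 10137 genes, 12.9% of 31 receptor genes and 0% of 23 cyclic AMP cascade genes. Several lists stood above the receptors, at 25% of 8 patch genes, 22.2% of 9 pair bonding genes and 14.3% of 7 matrix genes. The share was 11.1% of 18 immediate early genes, 10.3% of 29 excitability genes and 6.25% of 16 opioid list genes. It was 0% of 27 glutamate and GABA receptor genes and of 16 territory genes. Htr2a was near the floor, with 444 UMIs over all 20438 members. Htr2a, at 4.41 to 24.4 CPM in female mate and 2.08 to 8.11 CPM in female peer animals, and at 4.74 to 29.3 CPM in male mate and 0.682 to 16.7 CPM in male peer animals, differed by 0.91 (SE 0.27, adjusted p = 0.989, edgeR). Oprm1 differed by -0.26 (SE 0.11, adjusted p = 1.00, edgeR), with medians of 167 and 184 CPM in females with a mate and a peer and of 162 and 246 CPM in such males. Between the sexes Oprk1 was the opioid gene with the lowest p, with medians of 138, 170, 188 and 186 CPM in the same order of groups, and a female minus male difference of -0.28 (SE 0.085, adjusted p = 0.817, edgeR).

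Markers of glia were also higher on average in members of mate animals with the sexes pooled. By sex, the 5 tested oligodendrocyte genes had a median log2 mate minus peer difference of 0.465 in females and -0.157 in males. The 3 tested astrocyte genes had 0.422 and 0.069. Pdgfra, the 1 oligodendrocyte precursor gene tested, had 8.50 ± 5.53 CPM in mate and 4.21 ± 3.19 CPM in peer animals, a difference of 0.84 (SE 0.30, unadjusted p = 0.0075, adjusted p = 1.00, edgeR). The summed level over 3 precursor genes was 17.3 ± 9.91 CPM in mate animals (3.24 to 32.6) and 9.16 ± 6.28 CPM in peer animals (3.02 to 28.8). The sums were 135 ± 41.9 and 115 ± 48.0 CPM over the astrocyte genes, 294 ± 115 and 256 ± 101 CPM over the oligodendrocyte genes, and 25.3 ± 13.8 and 20.9 ± 11.0 CPM over the microglia genes, and the groups overlapped in each. With nuclei holding 3 or more UMIs of such markers left out, 0 genes were called between mate and peer animals (edgeR, 432 at an unadjusted p under 0.05). The part of these markers in the values of single genes was not tested.

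OXTR, the oxytocin receptor gene, is named for its known part in pair bonding and was picked out after its values had been seen. In members it stood at 0 to 56.4 CPM over the animals, a low level, and it was higher in members than in D1 nuclei by a median log2 ratio of 0.20. Its medians were 7.49 CPM in female mate and 9.69 CPM in female peer animals, and 2.43 CPM in male mate and 7.87 CPM in male peer animals, with overlapping groups. The mate minus peer difference was -0.51 (SE 0.36, adjusted p = 1.00, edgeR), and within males -1.48 (SE 0.51, adjusted p = 1.00, edgeR).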

How the data were processed

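The deposited files hold raw UMI counts per gene and barcode for 40 libraries, 1 animal each, with 19130 genes; the authors did not normalize them, as whole numbers show. Cell Ranger 3.1.0 is named in the submitters' processing notes. Genome build, annotation and the rule for choosing barcodes are not given in the sources used here. Groups were taken from the labels, and no library was left out.

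Members, gene lists (25 lists, 319 genes, of which 296 were used) and the added analyses were chosen with earlier results of these data known, so no list is independent support. Replicate numbers only name animals, in accession order, and pair none; an added test took each 2 consecutive label numbers as 1 unit. No doublet caller was run; excluded genes and an alternative without nuclei holding 3 or more UMIs of other types' markers stand in its place, and oligodendrocyte-gated nuclei, with at least 2 UMIs of the oligodendrocyte list, served as nuclei that should lack neuronal genes. Intervals of counting error were not used, as the animal was the replicate.

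Ratios within animals used CPM + 10, at least 20 nuclei of each kind, and a mean of at least 10 CPM in 1 of both. Counts summed per animal were tested with edgeR 4.0.16 (TMM factors, filterByExpr, quasi-likelihood test, Benjamini-Hochberg adjustment) in R 4.3.3; DESeq2 1.42.0 was an alternative. The 4 genes required and 4 genes excluded by the rule were left out of the tests. Simulated counts with 200 changed genes checked the fit, with 11 false calls among 10048 genes. Shares were compared by permutation of labels within the other factor. Named were the called genes (at most 5 per comparison) or the 3 with the lowest p where none was called, the leading 10 genes per direction of each ratio comparison (of which some are printed), and from each list the genes with the largest ratios or levels; Vgf, OXTR, the immediate early genes of the Penk division and genes beside rule genes were named after their values were seen. Alternatives were other denominators, depths, Penk minimums, pseudocounts, filters, normalization, a term for blocks of label numbers, and libraries left out. Gene names were matched to RefSeq (13332 of 15323 names found). No sequences are shown, and results of 1 listed gene are not reported here.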

Additional observations from a re-analysis of the deposited data

Results flagged for a closer look

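Of 60 groups of values checked for a single animal far from the others, 4 held one, and chance alone gives about 1 in 20. In Kdm5c, male peer 9 was lowest among the male peer animals at 94.4 CPM, with the next at 136 CPM. In Kdm6a, male peer 1 was highest among them at 303 CPM, with the next at 241 CPM. In Mrs2, male peer 7 was highest among them at 68.4 CPM, with the next at 35.4 CPM. In ENSMOCG00000019320, male peer 4 was highest among them at 8.87 CPM, with the next at 4.15 CPM. Groups of 11 animals were not checked in this way.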

How the results depend on the processing

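The female minus male difference in the share of members, -0.0149 points, turned to 0.0219 with at least 4 Penk UMIs and, leaving out a library after its values were seen, to 0.392 without female peer 1; no value passed the test. The mate minus peer difference in members per D1 nucleus was 0.205 (adjusted p = 0.133, permutation) after thinning, and 0.150 to 0.167 without 1 library. Within males, 1 gene was called by edgeR in place of 0, both with no low-count filter and without female peer 1; it was Atp13a5, higher in mate males, which the filter left out of the fit over all animals. The 71 genes past the ratio rule against D1 nuclei became 118 with a pseudocount of 2 CPM, 24 with 50 CPM and 45 with a minimum of 50 CPM, and the 120 against Cpne7 D2 nuclei became 36 with 50 CPM and 79 after thinning. Counts called for mate against peer, in females and for the difference between the sexes were 0 under every alternative run, and 2 for the sexes. With 2 consecutive label numbers as 1 unit, the mate minus peer differences were 0.176 members per D1 nucleus and 1.25 points of share (exact permutation p = 0.002 and 0.282).

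Depth, a median of 2060 UMIs in members, limits detection of genes at a few CPM. The number of nuclei limits the values of Cpne7 D2 nuclei and of female peer 1, which held 67 members.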
